A study of Mus musculus with 4 samples.

Results

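The 10 genes described here encode enzymes of glycolysis and of lactate metabolism: Hk1, Gpi1, Pfkm, Pfkp, Aldoa, Tpi1, Pgk1, Eno2, Ldha and Ldhb. They were taken by symbol from a table of 17778 genes, with no threshold on their values, and all 10 were found in it. Messenger RNA had been sequenced from the medial prefrontal cortex (mPFC) of C57BL/6 mice (C57BL/6J in the study's methods), in 2 libraries of the control group and 2 of the CUMS group. CUMS stands for chronic unpredictable mild stress, a schedule of changing mild stressors such as isolation, restraint, tilted or damp cages, noise and disturbed light. The mice were juvenile males when the stress began. Control mice were kept without these stressors, and of the stressed mice only those were used that had turned depression-like in the tests of sucrose preference, Y-maze and forced swimming. The table holds only the authors' mean of each group in RPKM, that is, reads scaled to the length of the gene and to the depth of the library. No value of a single library was available for any gene, no spread between mice can be given, and no difference below was tested against it.

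Glycolysis splits glucose into a pair of pyruvate molecules in the cytosol and yields ATP and NADH on the way. Lactate dehydrogenase then converts pyruvate and lactate into each other, so that glycolysis can run on or lactate can be used as fuel. The brain depends on glucose, and most of these steps are shared among isozymes, that is, separate genes for one reaction that are used to different degrees by neurons, glia and other cells.

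The promoters of the members are shown for one reason. Many glycolytic genes are known targets of the hypoxia-inducible factor HIF-1, which binds the core letters ACGTG or GCGTG. These letters were searched on both strands in the 250 bases before each annotated start in RefSeq (GRCm38.p6), which gave 17 windows for the 10 members. Matches occurred in 7 of the 10 genes, against 60.5% of the 11280 genes of at least 0.5 RPKM with a window and 41.5% of all 27025 genes with one. The members therefore carried these short letters about as often as other expressed genes. One match per gene is printed 5′ to 3′ on the strand of the gene, with the matched letters in capitals, where CACGT and CACGC are the same letters read from the other strand.
Hk1, chr10:62340422-62340446, minus strand, match 15 bases before a start: actgtgccacCACGCgtgaccgcgc
Pfkm, chr15:98092444-98092468, plus strand, match 135 bases before a start: taagtatgccACGTGaagtaagtaa
Pfkp, chr13:6648825-6648849, minus strand, match 68 bases before the start: ccccgcccttGCGTGagtcccgccc
Aldoa, chr7:126799366-126799390, minus strand, match 126 bases before a start: tggctcgagtCACGTcctagcgggg
Pgk1, chrX:106186940-106186964, plus strand, match 150 bases before the start: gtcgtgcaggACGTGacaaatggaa
Ldhb, chr6:142508069-142508093, minus strand, match 126 bases before the start: gggggagagcGCGTGcacactccag
Ldha, chr7:46845747-46845771, plus strand, match 47 bases before a start: cccagcctacACGTGggttcccgca
The windows of Gpi1, Tpi1 and Eno2 did not contain these letters. The GC box GGGCGG was found in 6 members against 63.4% of expressed genes, and the TATA letters TATAAA in Eno2 alone against 7.85%. In Eno2 these letters lay on the opposite strand, as TTTATA, 201 bases before a start. The Ldha match lies within the longer palindrome CACGTG, whose letters occurred in 9.8% of expressed genes and, among members, in Ldha and Pfkm. Ldha was also the only member whose windows held the whole cAMP response element TGACGTCA, found in 2.97% of expressed genes (its shorter form TGACG, in 29.8%, was found in no other member), 12 bases before a start: gctcccactcTGACGTCAgcgc (chr7:46845782-46845803). A match of letters is a description and not a bound site.

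Depth and tissue were examined first. The steps between low values gave an estimated depth of 7385524 fragments for a library of the control group and 7440476 for one of the CUMS group. This estimate is lower than the read numbers the study gives for its libraries, and the gap was not resolved, so that the counting intervals below could be narrower at the true depth. Members rested on 4451 to 31853 fragments per group. Excitatory cortical neuron markers were plentiful (for example Slc17a7, a vesicular glutamate transporter, at 635 RPKM in control and 791 RPKM in CUMS) and had higher means in CUMS in 11 of 13 genes, with a summed level of 1703 RPKM in control and 2041 RPKM in CUMS. Mature oligodendrocyte markers were lower in 10 of 11 genes, with sums of 1972 and 1348 RPKM. Astrocyte markers were mixed, with 5 genes higher and 6 lower and sums of 1287 and 1168 RPKM. None of these 3 lists had a gene listed at 0.01, the value that stands for 0. Markers of neighbouring regions were lower in CUMS in all genes that reached 0.5 RPKM in a group: 11 of septum and hypothalamus (sums of 182 and 94.3 RPKM), 11 of striatum (572 and 471 RPKM) and 8 of the olfactory bulb (71.4 and 33.4 RPKM). Omp, the olfactory marker protein gene, was listed at 0.01 in CUMS. Red blood cell markers, with sums of 532 and 837 RPKM, were higher in 7 of 7 genes that reached 0.5 RPKM in a group. Oxt, Irs4, Gal, Calcr, Omp and Eomes, among others, reached this limit in control alone, and Hbb-b2 in CUMS alone. The limit thus fixed their direction. Avp, Hcrt and Sln of the septum and hypothalamus list stayed under it in both groups and had higher means in CUMS. These lists were drawn up with earlier results of these data known. Several of their genes, such as Magel2, Prkcd, Doc2g and Th, had been reported as lower by the study from the same libraries. The counts for such lists were thus partly fixed in advance. Of all genes that reached 0.5 RPKM in a group, 46.6% were higher and 53.2% lower in CUMS. The marker levels thus differed between the group means, and in bulk tissue fewer cells of a type cannot be told apart from less RNA per cell. The part of these differences in the values of the enzymes was not tested.

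The comparison asked whether the mRNA of the glycolytic and lactate enzymes differed between depression-like and control mPFC. All 10 members were among the most abundant transcripts in both groups, and their means differed little. The mean was higher in CUMS in 7 members and lower in 3, with log2 ratios (CUMS to control) from -0.044 to 0.20 and a median of 0.036. Among the 14257 genes that reached 0.5 RPKM in a group, 46.6% were higher and 53.2% lower in CUMS, with a median log2 ratio of -0.015. Among the 1685 genes that reached 50 RPKM, as every member did, 54.1% were higher and 45.9% lower, with a median of 0.014. None of the 10 members passed a 1.5-fold difference in either direction, the fold used in the study, and none passed 1.2-fold. For comparison, 1.5-fold was passed by 7.2% of the genes of at least 0.5 RPKM (4.42% lower and 2.78% higher in CUMS) and by 1.13% of those of at least 50 RPKM (0.772% lower and 0.356% higher), and 1.2-fold by 24.9% and 7.72% of them. An absolute log2 ratio below 0.2 was found in all 10 members, narrowly so in Pfkp, and in 65.8% and 87% of the genes of these sets. High expression thus goes with small ratios in this table in general. The median absolute log2 ratio was 0.047 in the members and 0.080 in the genes of at least 50 RPKM, and 8 of the 10 members lay under the latter value.

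**Figure D1:**
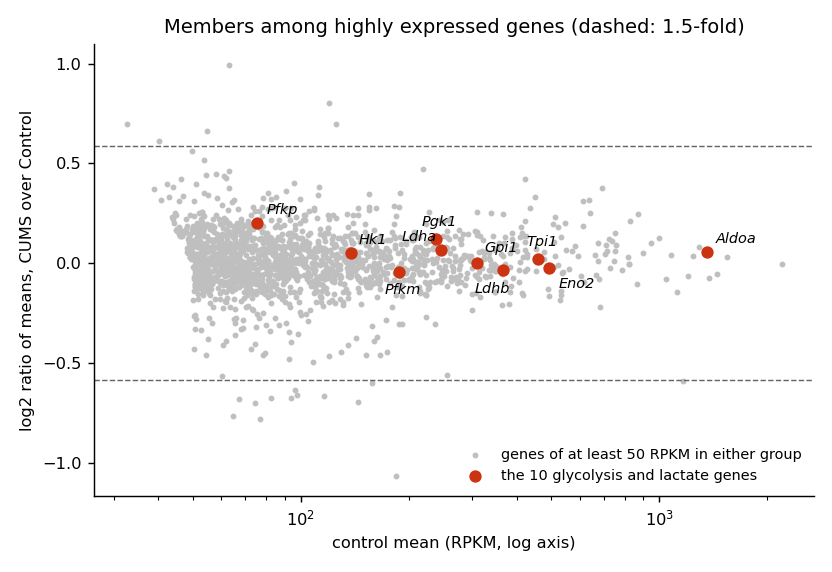
Log2 ratio of CUMS to control (vertical axis) against the control mean in RPKM (log axis) for the 1685 genes that reached 50 RPKM in a group (grey) and the 10 members (red). All members lie between the dashed lines at 1.5-fold, with Pfkp the highest at 0.20.

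For each gene a 95% counting interval of the log2 ratio was computed from the estimated fragments (exact binomial, Clopper-Pearson). It compares the pooled libraries and covers counting error only, not differences between mice or PCR duplicates. The interval lay above 0 in 5 members (Hk1, Pfkp, Aldoa, Pgk1 and Ldha), below 0 in 0 members, and contained 0 in the other 5. Among the genes of at least 50 RPKM, 32.3% had an interval above 0 and 22.3% one below 0, together 54.7%, and among the genes of at least 0.5 RPKM the shares were 12.5% and 16.8%, together 29.3%. The 5 of 10 members with an interval apart from 0 were close to the 54.7% among the genes of at least 50 RPKM. These had a control median of 89.6 RPKM, below the level of 9 of the 10 members, and the width of an interval depends on the number of fragments. The calls depended on depth and scaling. With 2 times the estimated depth the same 5 members lay above 0 and Pfkm and Eno2 below it, and with 0.5 times that depth 3 members (Pfkp, Aldoa and Pgk1) lay above 0 and 0 below. With CUMS rescaled to an equal total, 4 members (Pfkp, Aldoa, Pgk1 and Ldha) lay above 0 and Pfkm and Eno2 below.

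The first steps prepare glucose for splitting. Hk1 (gene 15275, GRCm38 chromosome 10, 62268855 to 62379920) encodes hexokinase 1, the main hexokinase of brain, which phosphorylates glucose and so keeps it in the cell. It had means of 138 RPKM (control) and 143 RPKM (CUMS), a difference of 3.56% and a log2 ratio of 0.050 (counting interval 0.0072 to 0.094). The CUMS mean was thus higher by little more than counting error. The other hexokinases were scarce. Hk2, the isozyme typical of muscle and fat, measured 1.02 RPKM in control against 0.845 in CUMS, and Hk3 was 0.815 and 0.55 RPKM. Hk1 made up 99.3% of the summed RPKM of Hk1 and Hk2 in control and 99.4% in CUMS, so that the hexokinase message was almost entirely Hk1 in both groups.

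A minor gene of this step had a larger ratio than any member. Hkdc1, which encodes a hexokinase domain protein, was 4.94 RPKM in control (255 fragments) and 7.67 RPKM in CUMS (399 fragments), a log2 ratio of 0.64 (0.40 to 0.87). It passed 1.5-fold and its interval lay apart from 0, at a level far below that of Hk1.

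Gpi1 (gene 14751, chromosome 7, 34201327 to 34230336) encodes glucose phosphate isomerase, which turns glucose 6-phosphate into fructose 6-phosphate. It had nearly equal means, 309.7 RPKM in control and 309.8 RPKM in CUMS, a log2 ratio of 0.00044 (-0.035 to 0.035). Of the members it had the smallest difference, and its sign turned (-0.0072) when CUMS was rescaled to an equal total. In GENCODE M21 it shares 741 exon bases with the noncoding gene Gm26762 of the opposite strand.

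Phosphofructokinase commits the sugar to glycolysis and is the main point of control. Its 3 isozyme genes did not share a direction. Pfkm (gene 18642, chromosome 15, 98092589 to 98132447), the muscle type, averaged 188 RPKM in control and 182 in CUMS, a log2 ratio of -0.044 (-0.089 to 0.00074), the lowest among the members, with 341 exon bases shared with Gm26513. Pfkp (gene 56421, chromosome 13, 6579874 to 6649060), the platelet type, had means of 75.6 RPKM (control) and 86.8 RPKM (CUMS), 14.8% higher, with a log2 ratio of 0.20 (0.14 to 0.26). This was the largest difference among the members, and 86.8% of the genes of at least 50 RPKM had a smaller absolute ratio. Pfkl, the liver type and not a member, measured 68.9 RPKM in control against 75.9 in CUMS, a log2 ratio of 0.14 (0.075 to 0.20). In GENCODE M21, 748 of the exon bases of Pfkp are shared with Pitrm1 on the opposite strand, and the use of strand in counting was not given. Pitrm1 itself was 10.2 RPKM in both groups, with a log2 ratio of -0.0035 (-0.18 to 0.17).

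**Figure D2:**
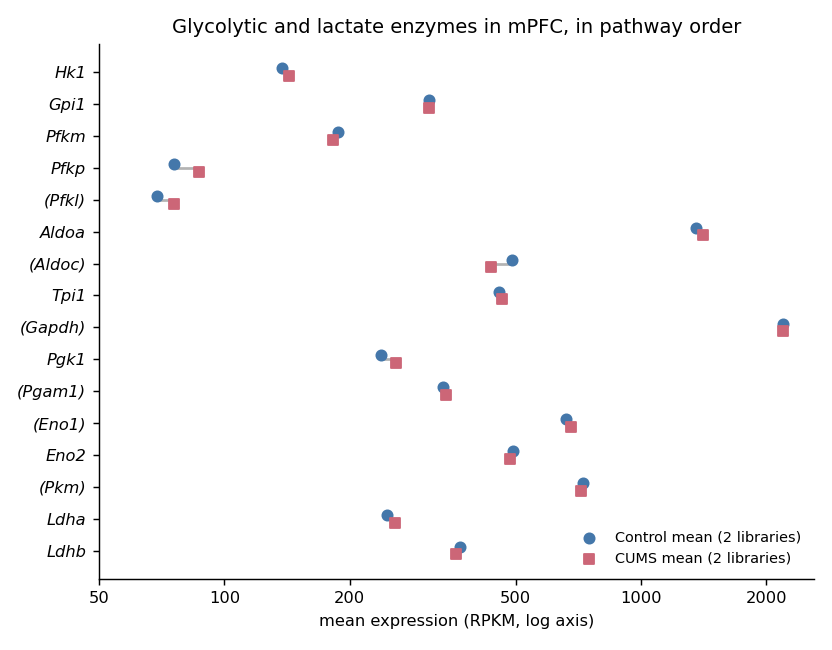
Group means in RPKM (log axis) of the 16 main glycolytic and lactate genes in the order of the pathway, with control as blue circles and CUMS as red squares, each the authors' mean of 2 libraries. Genes in brackets are not members; the pairs nearly coincide, with visible gaps at Pfkp, Pfkl, Aldoc and Pgk1.

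The middle steps split the sugar and make the first ATP. Aldoa (gene 11674, chromosome 7, 126795234 to 126800994) encodes aldolase A, which cleaves fructose 1,6-bisphosphate into a pair of triose phosphates. It was the most abundant member, with 1359 RPKM in control and 1413 RPKM in CUMS, and ranked 5 of all 17778 genes in control and 3 in CUMS. The log2 ratio was 0.056 (0.033 to 0.079), the narrowest interval among the members. Aldoc, the aldolase that astrocytes of the forebrain express, lay on the other side of 0, at 491 RPKM in control and 438 RPKM in CUMS, a log2 ratio of -0.17 (-0.20 to -0.13).

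Tpi1 (gene 21991, chromosome 6, 124810586 to 124814158) encodes triosephosphate isomerase, which makes both triose phosphates usable. Its means were 458 RPKM in control and 464 RPKM in CUMS, a log2 ratio of 0.021 (-0.017 to 0.060). Gapdh, the dehydrogenase of the next step and a usual reference gene in quantitative PCR, also in this study, averaged 2195 RPKM in control and 2188 in CUMS, a log2 ratio of -0.0043 (-0.024 to 0.016). Its value is uncertain, since 8 Gapdh pseudogenes were listed as well, with sums of 77.0 and 80.8 RPKM. Most of this was Gm12070 alone, at 71.8 RPKM in control and 76.1 RPKM in CUMS, and the other 7 were under 5 RPKM in both groups. Only uniquely aligned reads were counted, and how many reads were lost between such copies is not known.

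Pgk1 (gene 18655, chromosome X, 106187100 to 106203699) encodes phosphoglycerate kinase 1, which makes ATP from 1,3-bisphosphoglycerate. It had means of 237 RPKM (control) and 259 RPKM (CUMS), 8.93% higher, with a log2 ratio of 0.12 (0.074 to 0.17). This was the second largest difference among the members, and 69.0% of the genes of at least 50 RPKM had a smaller absolute ratio. Pgam1, the phosphoglycerate mutase that follows, measured 335 RPKM in control against 341 in CUMS, with an interval of the log2 ratio from -0.014 to 0.070.

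The last steps form pyruvate and lactate. Eno2 (gene 13807, chromosome 6, 124760053 to 124769673) encodes gamma enolase, known as neuron-specific enolase. It averaged 493 RPKM in control and 485 in CUMS, a log2 ratio of -0.023 (-0.052 to 0.0059). Eno1, the alpha enolase of most other cells, had means of 659.6 RPKM (control) and 678 RPKM (CUMS), a log2 ratio of 0.040 (0.010 to 0.070). Pkm, the pyruvate kinase of brain, measured 727 RPKM in control against 717 in CUMS, and its interval of -0.047 to 0.0031 contained 0.

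Ldha (gene 16828, chromosome 7, 46842274 to 46855627) encodes the A subunit of lactate dehydrogenase, which predominates in tissues that form lactate. It averaged 246 RPKM in control and 258 in CUMS, a log2 ratio of 0.065 (0.014 to 0.12). Ldhb (gene 16832, chromosome 6, 142490249 to 142507957) encodes the B subunit, which predominates in heart and other tissues that oxidize lactate. It had means of 367 RPKM (control) and 359 RPKM (CUMS), a log2 ratio of -0.032 (-0.080 to 0.015). Ldhd, the D-lactate dehydrogenase of mitochondria, was 7.62 and 8.62 RPKM, with an interval that contained 0.

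**Figure D3:**
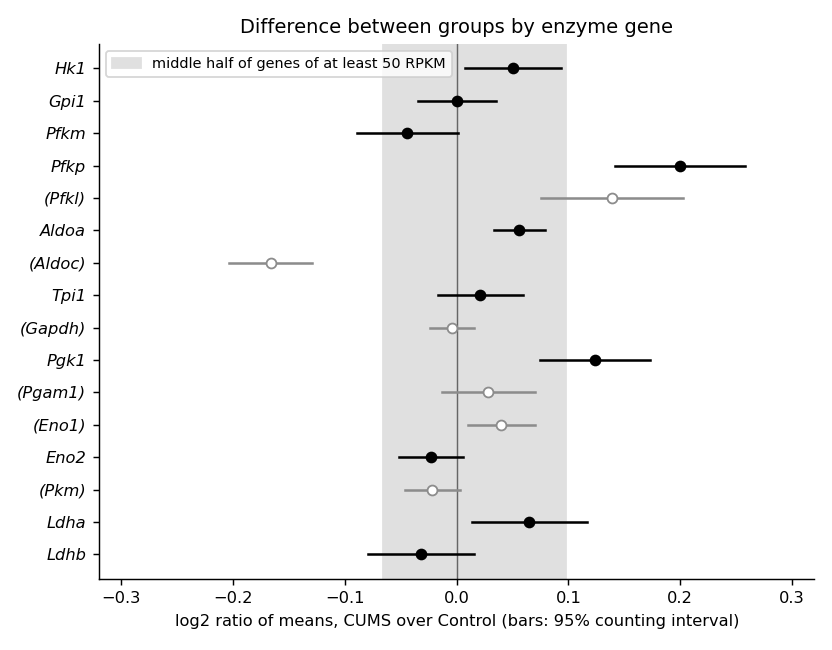
Log2 ratio of CUMS to control for the 16 main genes in pathway order, with 95% counting intervals as bars (counting error only), filled for members and open for the other genes. The grey band spans the interquartile range of the 1685 genes of at least 50 RPKM; Pfkp and Pgk1 among members, and Pfkl and Aldoc among the others, lie outside it.

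Since RPKM is scaled to gene length, levels can be compared between genes. In control the order was Aldoa, Eno2, Tpi1, Ldhb, Gpi1, Ldha, Pgk1, Pfkm, Hk1 and Pfkp, and the highest was 18.0 times the lowest. In CUMS the highest was 16.3 times the lowest, and 8 of the 10 members kept their place. Only Ldha and Pgk1 exchanged theirs. The ratio of Ldha to Pgk1 was 1.04 in control (counting interval 1.00 to 1.07) and 0.995 in CUMS (0.962 to 1.03), so that this pair of neighbours could hardly be ordered. Eno2 and Tpi1 were also close, with a ratio of 1.08 (1.05 to 1.10) in control and 1.04 (1.02 to 1.07) in CUMS, whereas the other neighbours differed by 1.16-fold (Ldhb and Gpi1 in CUMS) or more in both groups. Levels depend on the gene length used by the authors, which was not a whole number for 4 members (Hk1, Pfkm, Aldoa and Ldha). They also depend on reads lost between near-identical copies of a gene, which were not counted.

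The share of an isozyme within its step does not depend on the scaling of a library. Pfkm made up 56.5% of the summed phosphofructokinase RPKM in control and 52.8% in CUMS, while Pfkp made up 22.8% and 25.2% and Pfkl 20.8% and 22.0%. The log2 odds of Pfkm against the other two differed by -0.22 between CUMS and control (counting interval -0.28 to -0.15). Aldoa held 73.4% of the Aldoa and Aldoc sum in control and 76.3% in CUMS, a difference of 0.22 in the log2 odds (0.18 to 0.27). Eno2 held 42.8% of the Eno1 and Eno2 sum in control and 41.7% in CUMS, a difference of -0.063 (-0.10 to -0.021). Ldha held 40.1% of the Ldha and Ldhb sum in control and 41.8% in CUMS, a difference of 0.097 (0.028 to 0.17). In these 4 steps the difference exceeded counting error, and the largest was that of Pfkm at -3.70 percentage points. Whether any exceeded the spread between mice cannot be known from group means. Beside Aldoa against Aldoc, the astrocyte marker sums were 1287 RPKM (control) and 1168 RPKM (CUMS), but these markers had no common direction. Of them, 5 were higher and 6 lower, with counting intervals above 0 in 2 (Slc1a2 and Slc1a3) and below 0 in 4. Glul, the most abundant, weighs heavily in the sums, with 684 RPKM (control) and 587 RPKM (CUMS). Beside Eno2 against Eno1, the excitatory neuron marker sums were 1703 and 2041 RPKM. The part of either marker list was not tested.

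**Figure D4:**
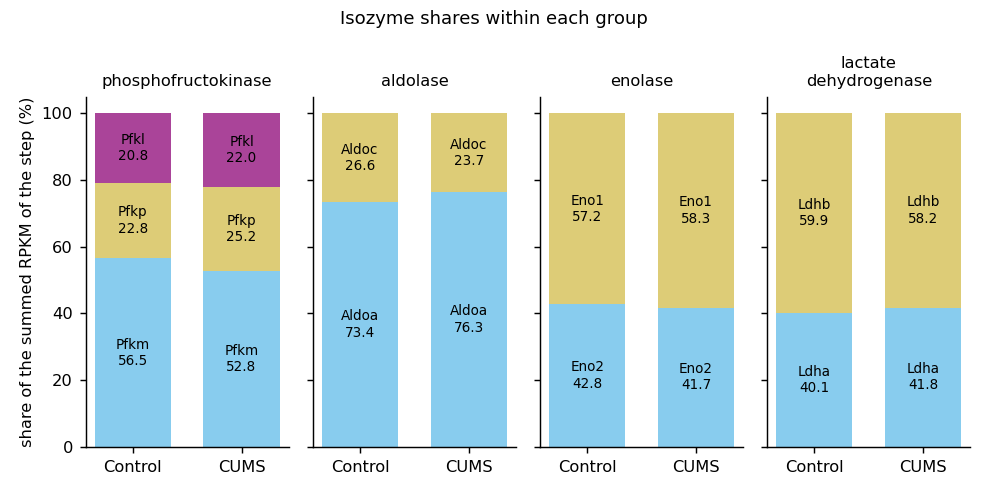
Share of each isozyme gene (percent, printed in the bars) in the summed RPKM of its step, in control and in CUMS, for phosphofructokinase, aldolase, enolase and lactate dehydrogenase. The largest difference is that of Pfkm, from 56.5 to 52.8 percent.

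Summed over their isozymes, 4 steps of the pathway lay close to each other in their ratios. The log2 ratio of the summed RPKM was 0.053 for phosphofructokinase, 0.013 for enolase, -0.022 for pyruvate kinase and 0.0099 for lactate dehydrogenase. The phosphoglycerate kinase step, which is Pgk1 alone, had a higher one at 0.12. The 10 members together summed to 3871 RPKM in control and 3959 RPKM in CUMS, which is 1.00% and 1.02% of the RPKM of all genes. The 16 main genes, members included, summed to 8347 and 8396 RPKM, or 2.16% of all RPKM in either group.

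The genes around the pathway were described from lists. The main glucose carriers were nearly level. Slc2a1, the glucose transporter of the blood-brain barrier and astrocytes, measured 53.1 RPKM in control against 52.9 in CUMS, and Slc2a3, the neuronal glucose transporter, was 63.1 and 63.5 RPKM. The intervals of both contained 0. Of the monocarboxylate transporters that carry lactate, Slc16a1 averaged 8.63 RPKM in control and 9.33 in CUMS with an interval that contained 0, and Slc16a7, the neuronal type, was 1.65 RPKM (59 fragments) and 0.995 RPKM (36 fragments), a log2 ratio of -0.73 (-1.36 to -0.10). Slc2a12, a further glucose transporter, was 1.41 RPKM (78 fragments) and 0.705 RPKM (39 fragments), a log2 ratio of -0.99 (-1.60 to -0.44). Bsg, which brings monocarboxylate transporters to the membrane, had a log2 ratio of -0.079 (-0.13 to -0.028), and Nptn, which does the same in neurons, one of 0.12 (0.062 to 0.17). Among the genes of this list of at least 5 RPKM, the highest ratio was that of Slc2a6 at 0.14 (-0.035 to 0.33). The lowest was that of Emb, which is not itself a carrier, at -0.14 (-0.43 to 0.14). Gpr81, a lactate receptor now named Hcar1, was 0.245 RPKM (12 fragments) in control and 0.555 RPKM (27 fragments) in CUMS. Over the 14 genes of the list with at least 0.5 RPKM the median log2 ratio was 0.0062, with 2 intervals above 0 and 3 below, against 12.5% and 16.8% of genes in general.

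Regulators of the flux had a median log2 ratio of -0.032 over 14 genes, with 1 interval above 0 and 2 below, against 12.5% and 16.8% of genes in general. Pfkfb3, which makes the strongest activator of phosphofructokinase, was the lowest, at 9.7 RPKM in control and 7.44 RPKM in CUMS, a log2 ratio of -0.38 (-0.54 to -0.22). The highest of at least 5 RPKM was 9630033F20Rik, now named Tigar, which encodes a phosphatase that lowers the same activator, at 0.15 (-0.015 to 0.32). Pdk1, a kinase that inhibits pyruvate dehydrogenase, had a log2 ratio of 0.15 (0.023 to 0.28), and Pdk2, the most abundant of its family here, one of -0.092 (-0.18 to -0.0029). Hif1a, the oxygen-regulated part of HIF-1, had means of 12.1 RPKM (control) and 13.1 RPKM (CUMS), with an interval that contained 0.

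Genes for the entry of pyruvate into mitochondria had a median of -0.035 over 8 genes. Only Pdha1, a subunit of pyruvate dehydrogenase, had an interval apart from 0, against 29.3% of genes in general. Its means were 77.4 RPKM in control and 84.6 RPKM in CUMS, a log2 ratio of 0.13 (0.059 to 0.20). Mpc2, a subunit of the mitochondrial pyruvate carrier, had the highest ratio at 0.13 (-0.015 to 0.28), and Pcx, which makes oxaloacetate from pyruvate, the lowest at -0.088 (-0.19 to 0.014). The shuttles that carry NADH of glycolysis into mitochondria had a median of -0.023 over 10 genes, with Mdh1, the cytosolic malate dehydrogenase, at -0.062 (-0.10 to -0.020). The highest ratio of a shuttle gene of at least 5 RPKM was that of Gpd2, the mitochondrial glycerol phosphate dehydrogenase, at 0.16 (0.065 to 0.26), and the lowest that of Slc25a11, the malate carrier, at -0.069 (-0.16 to 0.025).

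The pentose phosphate pathway, a branch of glycolysis that supplies NADPH, had a median of -0.058 over 8 genes. Of these, 2 were higher and 6 lower in CUMS, against 46.6% and 53.2% of genes in general. Taldo1, the transaldolase gene, was the lowest at -0.14 (-0.25 to -0.025) and Pgls, a lactonase gene, the highest at 0.12 (-0.11 to 0.36). Other genes that respond to hypoxia did not share a direction, with 8 higher and 8 lower, 3 intervals above 0 and 5 below (12.5% and 16.8% of genes in general), and a median of 0.042. The lowest was Ndrg1, also abundant in oligodendrocytes, at -0.49 (-0.59 to -0.39), and the highest of at least 5 RPKM was Ddit4, a stress-induced inhibitor of growth signaling, at 0.17 (0.016 to 0.32).

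**Figure D5:**
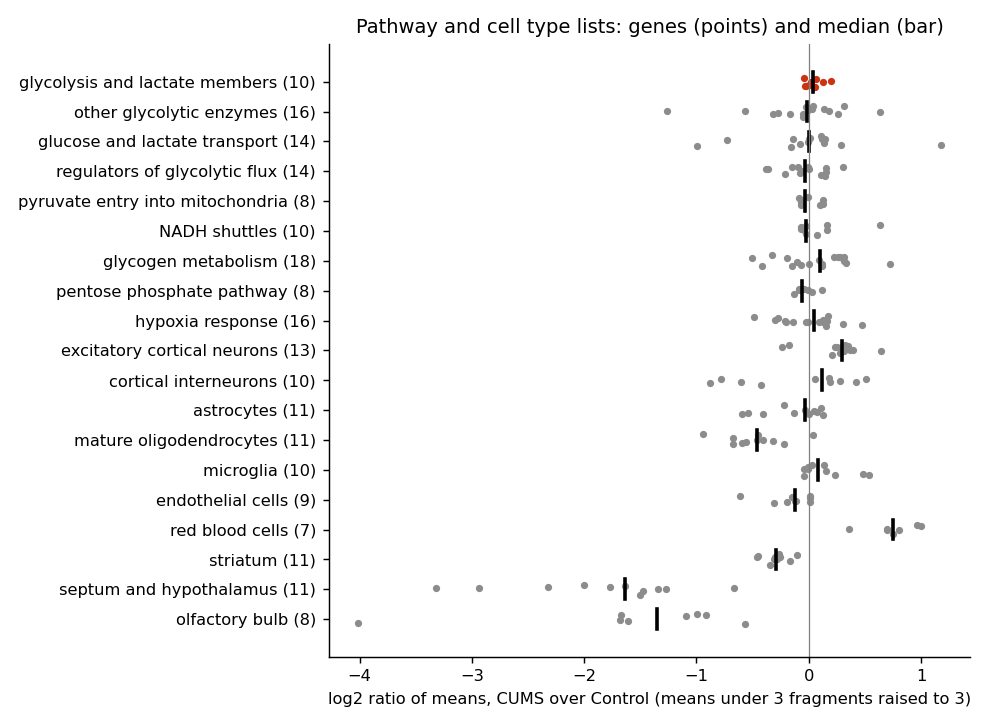
Log2 ratio of CUMS to control for each gene (points) and the median (bar) of the members (red) and of 18 further lists (grey), with the number of genes of at least 0.5 RPKM in brackets; means under 3 estimated fragments were raised to 3. The lists around glycolysis centre near 0, from -0.058 for the pentose phosphate pathway to 0.10 for glycogen metabolism. The excitatory neuron (0.30), oligodendrocyte, red blood cell and neighbouring region lists stand away from 0. The interneuron (0.12) and endothelial (-0.12) lists lie slightly further out than those around glycolysis.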

How the data were processed

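mRNA of mPFC was sequenced in 2 control and 2 CUMS libraries, which were grouped by their titles. Per the study's methods and the labels, the authors trimmed reads with SolexaQA, aligned them to mm10 with TopHat 1.0.12 and Bowtie 0.11.3, counted uniquely aligned reads per gene and deposited the RPKM mean of each group. RNA was isolated from each mouse, but whether a library held a single mouse, the gene annotation, the use of strand and the handling of read pairs were not given in the sources used here. Unique alignment loses reads from near-identical copies. Gene lengths stood beside the RPKM values, 2586 of them with a fraction. Gene coordinates are those of RefSeq. Columns with the authors' own log2 ratio, direction and NOISeq probability were not used.

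The ratio of both means was computed with pandas 2.3.3 and numpy 2.4.6. Fragments were estimated from the product of mean and length, which grows in equal steps with each fragment. In genes under 1000 bases with a product under 350, the best step between 20 and 200 was 67.7 RPKM x bases in control and 67.2 in CUMS, and 86.5% and 86.2% of these low values were whole multiples of it (tolerance 0.15 steps). Equal depth of the libraries of a group was assumed. The depth estimate and the 95% intervals of the log2 ratio (Clopper-Pearson, scipy 1.17.1) were tested on simulated data. For shares and ratios between genes a normal interval of the log odds was used, which was not tested in this way. Means listed at 0.01 were taken as 0, and 3 fragments as the floor. RefSeq identifiers (GRCm38.p6) matched 17731 genes, and exon overlaps came from GENCODE M21.

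Named were the 10 members, most other glycolytic genes, the highest and lowest ratio of at least 5 RPKM in each pathway list, and genes of the steps described. Of the further glycolytic list, Bpgm, Pgam2, Eno3, Eno4 and Pklr are given here only: Bpgm was 25.6 and 24.7 RPKM in control and CUMS, and the other 4 were under 9 RPKM, with intervals that all contained 0. Gapdhs, Pgk2 and Ldhc were not analysed here. A few further genes are not reported here. Microglia and endothelial marker lists had median log2 ratios of 0.083 and -0.12. The interneuron list (median 0.12) went both ways. Of its 10 genes, 3 had an interval above 0 and 4 one below, against 12.5% and 16.8% of genes in general. Gad1 (-0.60), Gad2 (-0.88), Slc32a1 (-0.78) and Lhx6 (-0.43) were lower, and Vip (0.51), Npy (0.27) and Cck (0.42) higher. The members follow from their symbols alone, but they and the lists were proposed with earlier results of these data known. Alternatives were 2 other scalings, pseudocounts, filters, folds and depths.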

Additional observations from a re-analysis of the deposited data

How the results depend on the processing

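No paired analysis was possible because single libraries have no values in the table, and fits that leave out a replicate were not run either. None of the 10 members passed a fold of 1.2, 1.5 or 2, nor 1.5-fold after CUMS was scaled so that the median ratio became 0 in log2. The median log2 ratio of the members, 0.036, ranged from 0.028 to 0.044, and the number of members lower in CUMS was 3 or 4. Gpi1 turned to -0.0072 after rescaling CUMS to an equal total over genes of at least 5 RPKM, a shift of -0.0076 in every log2 ratio. Members with a counting interval apart from 0 numbered 5. They numbered 3 (Pfkp, Aldoa and Pgk1) with 0.5 times the estimated depth, where fewer fragments widen the interval by construction, and 7 with 2 times the depth. Rescaling to an equal total gave 6, of which Pfkm and Eno2 were lower. Changes of isozyme shares kept their direction when counted in fragments. The set of genes of at least 50 RPKM was chosen after seeing the data.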

Other observations

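Glycogen, the glucose store that brain keeps mainly in astrocytes, is fed from and drained into the first steps of glycolysis. Over its 18 genes the log2 ratios had a median of 0.10, and 11 genes were higher and 7 lower in CUMS, with 5 counting intervals above 0 and 5 below, against 12.5% and 16.8% of all genes of at least 0.5 RPKM. On the side of synthesis, Gys1, the glycogen synthase gene, measured 6 RPKM in control against 7.29 in CUMS, a log2 ratio of 0.28 (0.070 to 0.50), and Ugp2, which makes the activated glucose, had a log2 ratio of 0.31 (0.17 to 0.45). Gyg, the primer protein of glycogen, had a log2 ratio of 0.26 (0.055 to 0.47). Pgm2l1, which makes glucose 1,6-bisphosphate and is placed on neither side here, was the highest of at least 5 RPKM. It was 22.5 and 28.3 RPKM, a log2 ratio of 0.33 (0.26 to 0.40). Pgm2, also of the list, is named here by its symbol in these data (gene 72157, chromosome 4, 99929451 to 99987294). It was 34.7 and 33.1 RPKM, a log2 ratio of -0.068 (-0.19 to 0.051). The intervals of Gbe1 and Epm2a contained 0 as well.

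On the side of breakdown, Pygm, the phosphorylase of muscle and astrocytes, averaged 13.2 RPKM in control and 9.84 in CUMS and was the lowest of at least 5 RPKM, with a log2 ratio of -0.42 (-0.61 to -0.23). Pygb, the brain phosphorylase, was 77.2 and 71.6 RPKM, a log2 ratio of -0.11 (-0.17 to -0.046). Phka1, a subunit of the kinase that activates phosphorylase, had a log2 ratio of -0.51 (-0.73 to -0.29) at 4.54 and 3.19 RPKM. Pygl, the liver phosphorylase, went the other way at low levels, with 1.25 RPKM (52 fragments) and 2.06 RPKM (87 fragments). Ppp1r3c, which targets a phosphatase to glycogen and favors synthesis, had a lower mean as well, with a log2 ratio of -0.33 (-0.51 to -0.15), so that the genes of synthesis did not all lie on one side. These genes were picked from the list after their values were seen, and none of the differences was tested against the spread between mice.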
